A study of Rattus norvegicus with 15 samples.

Results

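The interleukins, the ligands of the tumour necrosis factor (TNF) superfamily and the receptors of both were followed through liver cirrhosis and its treatment with eplerenone. Their members were the protein coding genes whose symbol begins with Il, Tnfsf or Tnfrsf and a number, and Tnf, Lta and Ltb. This gave 110 of the 22050 protein coding genes, or of 32623 genes of any kind, in the table of counts. By their known role 49 are ligands, 51 are receptors and 9 are antagonists or decoys, which bind a ligand or a receptor without passing on a signal. The remaining gene, Il4i1, encodes an amino acid oxidase and shares only the name.

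Interleukins and TNF superfamily ligands are short-range signals between immune cells, hepatocytes and the other cells of the liver. Interleukin receptors pass the signal to JAK kinases and STAT factors or, in the IL-1 and IL-17 families, to adaptors that activate NF-kB, and TNF superfamily receptors recruit TRAF adaptors or death domain proteins. Soluble antagonists and decoy receptors hold these signals in check, and the balance is known to matter in liver injury, where the same families act on inflammation, hepatocyte death, regeneration and scar formation.

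All rats were male Wistar, matched for age, with a starting weight of 75 to 100 g. Control rats were untreated. Cirrhosis rats inhaled carbon tetrachloride (CCl4), a hepatocyte poison, for 12 weeks and drank phenobarbital at 0.35 g/L. Cirrhosis & eplerenone rats received the same and, after week 8, eplerenone, an antagonist of the mineralocorticoid receptor, at 100 mg/kg body weight in hazelnut spread, which no other group is said to have received. Livers were taken 7 to 10 days after the last CCl4. The sequenced animals were selected by the success of cirrhosis induction or of treatment, which limits what the groups stand for. The labels list 5 rats per group, and 14 libraries of whole-liver poly(A) RNA were analysed here: control replicates 2 to 5, 5 cirrhosis and 5 cirrhosis & eplerenone. A control that lay apart from the others on principal components was dropped by the study, so that the controls are alike partly by choice, which bears on every statement that groups did not overlap with control. Values below follow the replicate number in each group and are FPM, that is, fragments per 1000000 counted reads after scaling the libraries by TMM.

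Libraries held 16157491 to 21574767 counted reads, so that 3 counts, taken as the smallest amount a library can show, correspond to 0.121 to 0.191 FPM. On the first principal component of the most variable genes (68.5% of their variance) control rats lay between -41.2 and -34.6 and cirrhosis replicates 1 to 4 between 32.0 and 40.5. Cirrhosis replicate 5 stood apart at -13.0, and cirrhosis & eplerenone rats spread from -22.9 to 35.3, the highest being replicate 3. Hepatocyte markers were present in every library, with Alb between 56103 and 130558 FPM. The animal codes begin with 13 or 16 in control and with 15 or 20 in CCl4-treated rats, and what follows this prefix cannot be told apart from CCl4.

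Most ligands were at the limit of detection in whole liver. Of the 49 ligands, 31 did not pass the filter on low counts, against 14 of 51 receptors and 3 of 9 antagonists or decoys. No count was found in any library for 11 members, among them the ligand genes Il2, Il3, Il5, Il9, Il13, Il17c, Il17f, Il21, Il22 and Il36g and 1 receptor, Il20ra. At most 3 counts in every library were found for 23 members. A count of 0 allows up to 3 counts in a library, so these genes were not detectable at this depth.

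Some of the best-known inflammatory ligands had few counts as well. Tnf, the founding ligand of its superfamily, had 3, 4, 0 and 0 counts in control, 4, 14, 8, 17 and 7 in cirrhosis and 2, 2, 21, 8 and 12 in cirrhosis & eplerenone. It passed the filter but not the test, with a log2 fold change (log2FC) in cirrhosis of 2.20 ± 0.89 (SE, as after every log2FC given here) and an edgeR adjusted p of 0.0875. Il6, an inducer of the acute phase response, had no count in any control, 3, 4, 0, 8 and 0 counts in cirrhosis and 0, 0, 3, 5 and 0 with eplerenone. Il10, an anti-inflammatory cytokine, had 4, 4, 6 and 1 counts in control against 0, 0, 0, 1 and 0 in cirrhosis and 4, 1, 7, 0 and 3 with eplerenone. The cirrhosis rats thus had 1 count in all, while each of the 4 controls had at least 1. Tnfsf9, the 4-1BB ligand, had no count in control, 8, 14, 5, 10 and 0 in cirrhosis and 8, 1, 14, 1 and 9 with eplerenone. Tnfsf11 (RANKL) reached at most 2 counts in any library. Il6, Il10, Tnfsf9 and Tnfsf11 did not pass the filter and were not tested.

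**Figure D1:**
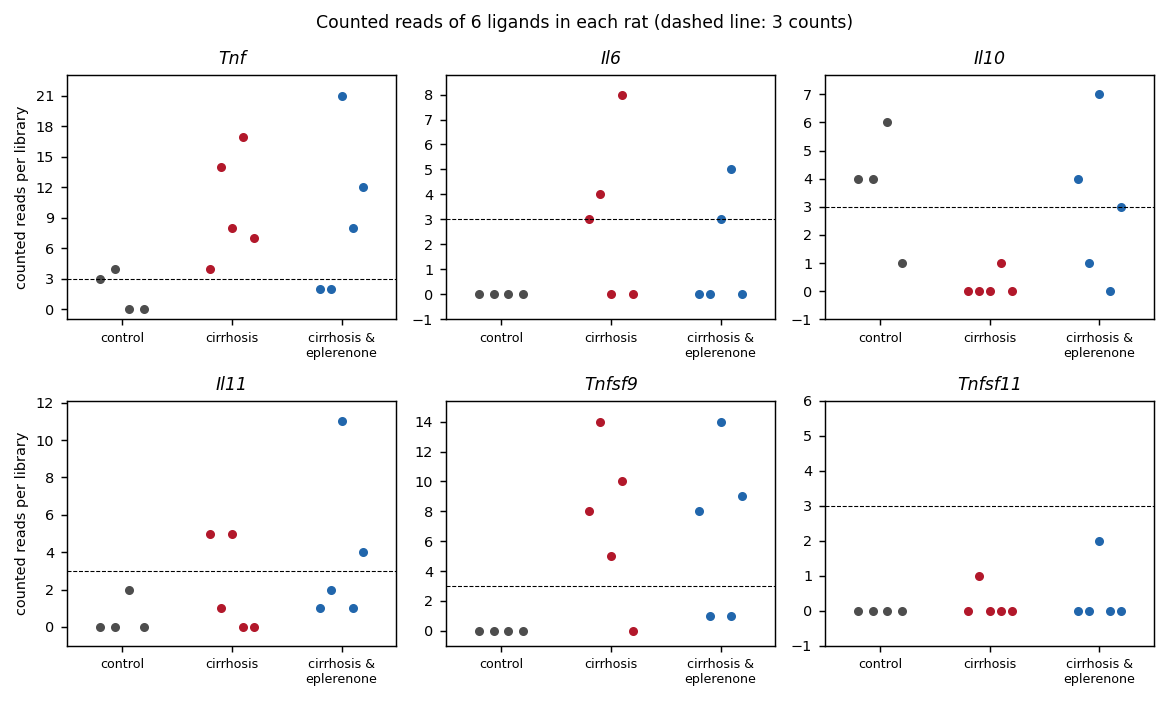
Counted reads per library (vertical axis, linear) of 6 ligands in control, cirrhosis and cirrhosis & eplerenone rats, each point 1 rat, with a dashed line at 3 counts. Il10 reached 6 counts in control and 1 in cirrhosis, Il6 and Tnfsf9 had no count in control, and Tnfsf11 stayed below 3 counts in all rats.

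Cirrhosis was compared with control first. Of the 62 members that passed the filter, 25 were differentially expressed (DEG, Benjamini-Hochberg FDR below 0.05 in both edgeR and DESeq2), 20 higher and 5 lower. Over the 13628 protein coding genes tested 20.6% were DEG, 13.8% higher and 6.72% lower. Among 18 ligands tested 9 rose (Ltb, Il17d, Tnfsf13b, Il16, Il36b, Il1b, Il34, Tnfsf10 and Tnfsf12) and 1, Il1a, fell. Among 37 receptors 11 rose and 3 fell, and of 6 antagonists or decoys 1 fell. The median log2FC was 0.91 over the tested ligands and 0.94 over the tested receptors, with -0.01 over all protein coding genes tested. A member could pass the filter through high values in 1 group alone, so these counts describe the tested genes and not all members. No overlap between control and cirrhosis rats was found for 16 tested members that were higher and 5 that were lower, against 11.5% and 9.07% of all protein coding genes tested.

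Ligands and receptors differed in how far this depended on genes with few reads. When every sample had to hold 10 counts or more, 35 members were left, and 15 of them were DEG in a background of 17.8%. Of 12 ligands 7 were then higher and none lower, and their median log2FC was 0.82. Of 20 receptors 5 were higher and 3 lower, and their median turned to -0.13. The median of the receptors thus depended on genes with low counts in at least 1 rat, and it fell to 0.36 without cirrhosis replicate 4. Without TMM scaling the median of all genes moved from -0.01 to 0.28, 22 members were called higher and 4 lower, and no DEG named here changed sign.

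Between 12 and 27 members were DEG when 1 rat was left out: 12 without control replicate 5, 14 without cirrhosis replicate 4, 15 without control replicate 3, and 16 without control replicate 4 or cirrhosis replicate 1 or 3. The calls of Ltb, Il16, Tnfrsf11a, Tnfrsf12a, Il17re, Il17rb, Il18rap, Il1rap, Il21r, Il2rg and Tnfrsf11b held in all 14 of these fits. Whole liver was sequenced, and more cells of a type and more RNA per cell cannot be told apart.

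**Figure D2:**
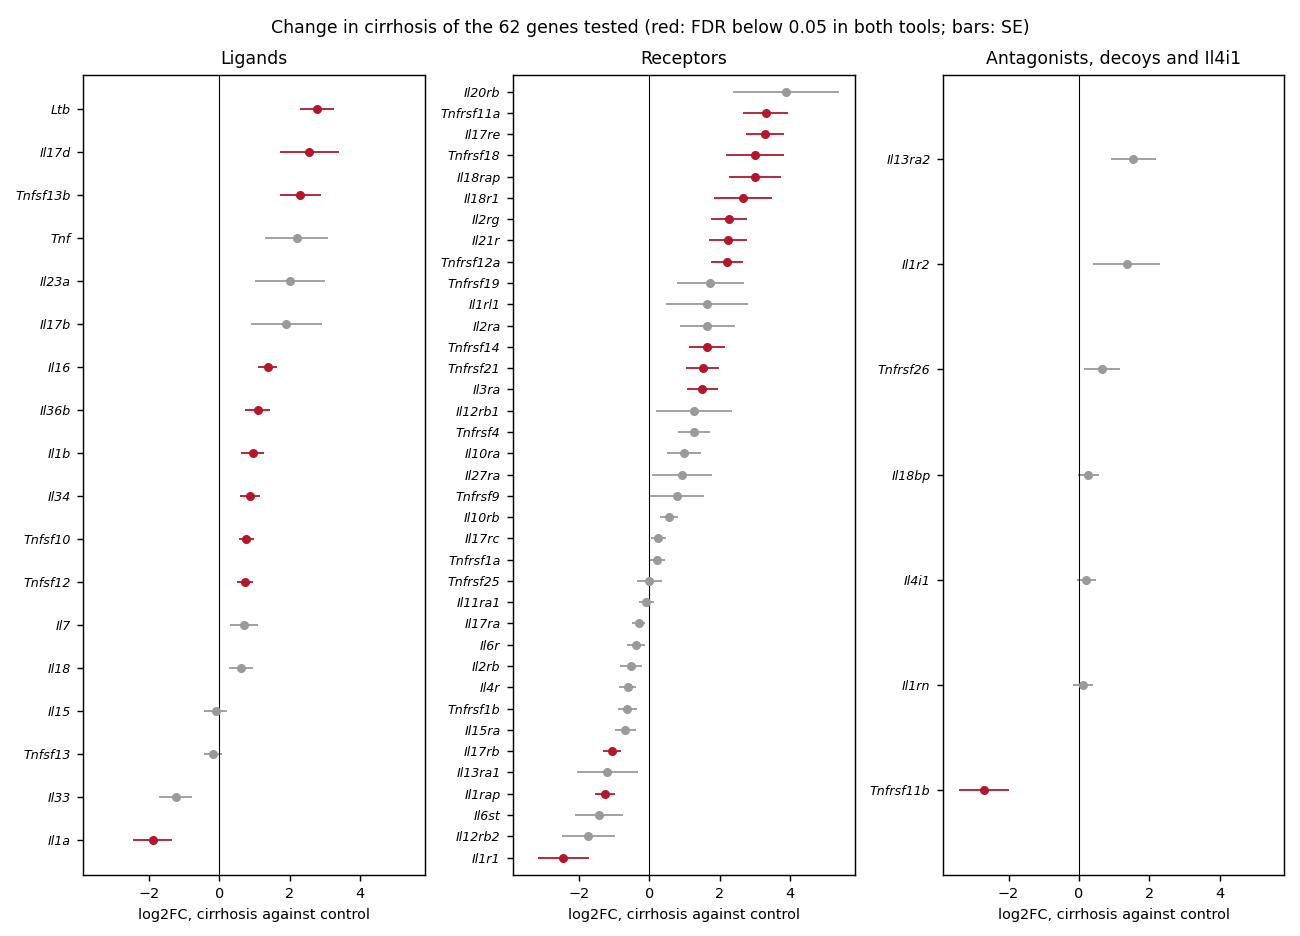
Log2FC of cirrhosis against control (horizontal axis) for the 62 members tested, split into 18 ligands, 37 receptors and 7 others, with bars of 1 SE and genes called in both tools in red. Red points lie mostly right of 0 among ligands, while receptors hold both the largest called rise, 3.31 for Tnfrsf11a, and a called fall of -2.44 for Il1r1.

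Among TNF superfamily ligands, Ltb changed most. Ltb encodes the membrane anchor of the lymphotoxin heterotrimer, a signal made by lymphocytes. It was at 2.83, 2.43, 3.60 and 1.78 FPM in the 4 controls and at 19.47, 15.51, 31.6, 19.6 and 5.18 FPM in the 5 cirrhosis rats. All cirrhosis rats were above all controls, with replicate 5 nearest to them. The log2FC was 2.78 ± 0.49 (edgeR adjusted p = 0.00233), and the call held in each of 14 fits that left out 1 rat. Tnfsf13b, the B cell survival factor BAFF, was at 0.422, 0.405, 1.16 and 0.700 FPM in control and at 5.05, 1.92, 4.05, 4.05 and 1.55 FPM in cirrhosis. These groups did not overlap either, and the log2FC was 2.30 ± 0.58. The receptors of Tnfsf13b, Tnfrsf13b, Tnfrsf13c and Tnfrsf17, did not pass the filter. Smaller rises were found for Tnfsf10 (TRAIL, a death ligand), with a log2FC of 0.77 ± 0.21, and Tnfsf12 (TWEAK), with 0.74 ± 0.23. Tnfsf12 was at 14.2, 13.95, 13.3, 17.7 and 7.92 FPM in cirrhosis, where replicate 5 fell within the control range of 7.08 to 9.22 FPM. Tnfsf13 (APRIL), its neighbour on the chromosome, had a log2FC of -0.17 ± 0.25 and was not called. The annotation places both Tnfsf12 and Tnfsf13 over Eif4a1l, whose reads may be shared.

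In the IL-1 family both agonists of the same receptor moved in opposite directions. Il1b, the secreted agonist, was at 3.14, 1.503, 3.91 and 2.67 FPM in control and at 7.04, 4.81, 6.04, 5.18 and 4.05 FPM in cirrhosis. Il1a, the agonist that also acts from within or on the surface of cells, was at 4.28, 3.58, 5.31 and 4.45 FPM in control and at 1.33, 0.408, 0.755, 0.410 and 3.09 FPM in cirrhosis. For neither gene did the groups overlap: every cirrhosis rat was higher for Il1b and lower for Il1a, and replicate 5 was the closest to control for both. The log2FC was 0.95 ± 0.32 for Il1b (edgeR adjusted p = 0.0490) and -1.89 ± 0.55 for Il1a (edgeR adjusted p = 0.0280). The call of Il1b held in 4 of 14 fits with 1 rat left out, and that of Il1a in 8 of 14. Without control replicate 5, for example, neither was called.

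Il36b, an IL-36 agonist of the same family, was at 0.965, 1.45, 1.28 and 1.21 FPM in control and 2.39, 3.35, 2.75, 2.26 and 2.38 FPM in cirrhosis, again without overlap. Its log2FC of 1.10 ± 0.36 held as a call in 5 of 14 fits, and the annotation places it over Il1f10, Il36rn and Il1rn, so that reads of these genes may be shared. Il18, which drives interferon gamma production, was not called (log2FC 0.61 ± 0.35). Il33, an alarmin, was at 76.9, 74.5, 47.4 and 65.8 FPM in control and 38.6, 36.6, 36.0, 20.3 and 8.45 FPM in cirrhosis. The groups did not overlap, but only DESeq2 called it (adjusted p = 0.0440), against an edgeR adjusted p of 0.0753.

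Of the other ligands, Il16, a ligand of CD4, was at 3.38, 2.31, 3.11 and 2.16 FPM in control and 6.71, 8.16, 8.41, 6.41 and 5.77 FPM in cirrhosis. No cirrhosis rat reached down to the control range, and its log2FC of 1.37 ± 0.27 was called in 14 of 14 fits. The annotation places Il16 over the pseudogene Snrpc-ps10, so that reads may be shared. It also places Il1a, Il1rap and Tnfsf10 over long noncoding RNA genes. Il34, a ligand of the CSF1 receptor on macrophages, had a log2FC of 0.87 ± 0.28, and reads may be shared with Rpl29l3, which the annotation places over it. Il17d had 1, 6, 2 and 0 counts in control and 27, 20, 16, 15 and 3 in cirrhosis, and its log2FC of 2.56 ± 0.84 was lost as a call in 8 of 14 fits. Il15 (log2FC -0.11 ± 0.33) and Il7 (log2FC 0.70 ± 0.40), both lymphocyte survival factors, were not called.

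Promoters are shown for 5 members because Il1a and Il1b lie side by side and moved apart, Il18r1 rose with its neighbour Il18rap, and Ltb and Il1r1 had the largest called changes of a ligand upward and of a receptor downward. Each line gives the 250 bases before the RefSeq start of the gene, 5′ to 3′ on its own strand, at the given place in GRCr8. Capitals mark matches, on either strand, to the motifs searched: NF-kB, AP-1 (TGANTCA), STAT (TTCNNNGAA) and TATAAA.
Il1a, chr3:136990018-136990267, minus strand: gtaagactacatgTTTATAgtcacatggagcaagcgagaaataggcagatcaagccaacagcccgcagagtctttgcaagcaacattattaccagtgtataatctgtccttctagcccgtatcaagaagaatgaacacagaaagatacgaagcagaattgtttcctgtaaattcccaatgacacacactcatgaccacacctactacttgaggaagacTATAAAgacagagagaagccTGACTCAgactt
Il1b, chr3:137036582-137036831, minus strand: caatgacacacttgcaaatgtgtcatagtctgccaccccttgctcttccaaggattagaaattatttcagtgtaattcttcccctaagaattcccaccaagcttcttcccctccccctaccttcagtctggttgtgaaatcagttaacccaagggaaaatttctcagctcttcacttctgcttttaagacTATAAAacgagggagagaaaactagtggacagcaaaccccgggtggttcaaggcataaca
Il1r1, chr9:50034133-50034382, plus strand: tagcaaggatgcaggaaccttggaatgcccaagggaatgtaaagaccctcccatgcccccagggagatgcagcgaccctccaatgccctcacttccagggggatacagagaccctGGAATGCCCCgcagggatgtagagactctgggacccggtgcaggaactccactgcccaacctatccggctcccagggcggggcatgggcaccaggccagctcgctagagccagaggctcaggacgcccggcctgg
Il18r1, chr9:50223241-50223490, plus strand: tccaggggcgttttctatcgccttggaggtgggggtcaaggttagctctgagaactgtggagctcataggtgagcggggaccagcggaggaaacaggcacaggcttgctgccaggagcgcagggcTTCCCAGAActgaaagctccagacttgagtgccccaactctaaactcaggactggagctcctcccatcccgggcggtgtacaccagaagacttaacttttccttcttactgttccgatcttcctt
Ltb, chr20:3634055-3634304, minus strand: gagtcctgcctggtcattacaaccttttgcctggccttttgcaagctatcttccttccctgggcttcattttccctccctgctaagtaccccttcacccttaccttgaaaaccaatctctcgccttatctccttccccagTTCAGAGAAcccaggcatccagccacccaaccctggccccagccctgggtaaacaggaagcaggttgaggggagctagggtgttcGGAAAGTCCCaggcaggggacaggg
Of these windows, that of Il1a held an AP-1 match 12 to 6 bases before the start and TATAAA 32 to 27 bases before it, with a further match on the other strand. The window of Il1b held TATAAA 60 to 55 bases before the start and no match to the other motifs. That of Ltb held an NF-kB match 25 to 16 bases and a STAT match 110 to 102 bases before the start. Il1r1 had an NF-kB and Il18r1 a STAT match only. No match overlapped another. Among all 18999 protein coding promoters of the same length, NF-kB was found in 6.9%, AP-1 in 5.8%, STAT in 7.2% and TATAAA in 12.3%. A match describes the letters and not a bound site. An entry was found for 86 of the 110 members.

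Receptors of the TNF superfamily included the largest called rise. Tnfrsf11a (RANK), the receptor of Tnfsf11, was at 0.483, 0.463, 0.855 and 0.382 FPM in control and 2.77, 3.999, 3.94, 8.92 and 7.68 FPM in cirrhosis. All cirrhosis rats, replicate 5 included, lay far above the controls, with a log2FC of 3.31 ± 0.64 (edgeR adjusted p = 0.00374). Tnfrsf12a (Fn14), the receptor of Tnfsf12, was at 7.06, 3.58, 4.95 and 3.24 FPM in control and 13.9, 16.6, 22.1, 38.5 and 18.98 FPM in cirrhosis. Here too the groups were separate, and replicate 4 was the highest. Its log2FC was 2.22 ± 0.46, and both Tnfrsf11a and Tnfrsf12a were called in 14 of 14 fits. Tnfrsf18 (GITR), a costimulatory receptor of T cells, had a log2FC of 3.01 ± 0.83 and at most 0.241 FPM in control. Its control counts of 4, 3, 0 and 0 were near or under the limit of 3 counts. Tnfrsf21 (death receptor 6) was at 1.27, 1.33, 1.95 and 0.954 FPM in control and 2.72, 2.90, 2.43, 8.62 and 3.15 FPM in cirrhosis. The log2FC of 1.52 ± 0.47 came from groups without overlap, in which replicate 4 was far above the other cirrhosis rats. Tnfrsf14 (HVEM) had a log2FC of 1.64 ± 0.52. The receptors of Tnf itself were not called, with a log2FC of 0.24 ± 0.22 for Tnfrsf1a and -0.62 ± 0.27 for Tnfrsf1b.

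Il17re rose by a similar amount. It encodes the receptor subunit for IL-17C and was at 1.03, 0.752, 0.427 and 0.254 FPM in control and 8.87, 4.77, 8.09, 5.49 and 3.39 FPM in cirrhosis. No values overlapped, and the log2FC of 3.30 ± 0.53 had the lowest edgeR adjusted p of all members (0.00153). Il17rc, the next gene on chromosome 4, had a log2FC of 0.26 ± 0.22, and Il17ra, the shared subunit of the family, one of -0.30 ± 0.19. Neither was called. Il17rb, the receptor of Il25, went the other way, at 15.4, 17.9, 11.7 and 9.60 FPM in control and 4.60, 6.90, 5.88, 10.8 and 4.76 FPM in cirrhosis. Replicate 4 of cirrhosis overlapped the control range, and the log2FC was -1.05 ± 0.25. The annotation places Il17rb over Actr8 and Chdh, whose reads may be shared.

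Both chains of the IL-18 receptor were among the members that rose. Il18r1 was at 0.121, 0.0578, 0.244 and 0 FPM in control and 0.499, 0.694, 0.378, 1.59 and 0.357 FPM in cirrhosis, and Il18rap at 0.483, 0.0578, 0.0610 and 0.127 FPM and 1.11, 1.80, 1.40, 2.26 and 0.952 FPM. Most control rats were near or under the limit of 3 counts for both genes, with 2, 1, 4 and 0 counts of Il18r1 and 8, 1, 1 and 2 of Il18rap. The groups overlapped for neither gene. The log2FC was 2.66 ± 0.82 and 3.003 ± 0.73, with calls in 10 and 14 of 14 fits.

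In the common gamma chain family, whose cytokines include growth factors of lymphocytes, 2 of 10 tested members were called, near the share of all genes. They were Il2rg and Il21r. Il2rg, the gamma chain shared by the receptors of several interleukins, was at 1.75, 1.33, 1.47 and 2.04 FPM in control and 7.65, 9.18, 10.9, 9.28 and 2.74 FPM in cirrhosis. Cirrhosis replicate 5 was the only one of its group near the controls. Il2rg had a log2FC of 2.27 ± 0.50, and Il21r, which pairs with it, one of 2.24 ± 0.55. Il2ra and Il2rb, the other chains of the IL-2 receptor, had log2FC of 1.65 ± 0.78 and -0.51 ± 0.32 and were not called. Il4r and Il15ra were not called either (log2FC -0.61 ± 0.25 and -0.67 ± 0.31). Il3ra, a chain of the IL-3 receptor and of another family, was at 22.498, 15.4, 15.51 and 11.7 FPM in control and 64.3, 29.1, 85.3, 40.7 and 12.7 FPM in cirrhosis. Replicate 5 overlapped the controls, and the log2FC was 1.51 ± 0.43.

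Markers of T cells were examined in the same fits. All 6 of 6 markers were higher in cirrhosis, and their summed level was 0.763 to 1.71 FPM in control, 3.81 to 13.2 FPM in cirrhosis and 2.50 to 5.14 FPM in cirrhosis & eplerenone. Of the neutrophil markers 3 of 3 tested were higher (sum 0.572 to 1.45 FPM in control and 1.92 to 19.5 FPM in cirrhosis), with Mpo at 0 in all controls. Mast cell markers were higher for 3 of 4 (3.18 to 5.49 FPM and 4.34 to 23.0 FPM), with Tpsab1 at 0 in all controls. NK cell markers were higher for 1 of 5 and B cell markers for none of 3 tested. Cholangiocyte markers were higher for 5 of 5 (12.8 to 19.4 FPM and 42.4 to 100.0 FPM) and those of stellate cells or myofibroblasts for 4 of 6 (138 to 235 FPM and 251 to 483 FPM). The part of these cells in the changes of the cytokine genes was not tested.

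The receptor of Il1a and Il1b fell. Il1r1 was at 79.3, 33.5, 57.6 and 50.4 FPM in control and 4.22, 21.9, 2.97, 12.8 and 8.69 FPM in cirrhosis. Every cirrhosis rat was below every control, but the cirrhosis rats differed widely among themselves, with replicate 2 the highest. The log2FC was -2.44 ± 0.72 (edgeR adjusted p = 0.0295), called in 8 of 14 fits. Il1rap, the accessory chain that Il1r1 needs for signalling, was at 51.1, 62.3, 41.2 and 53.8 FPM in control and 18.9, 30.5, 18.2, 17.54 and 24.3 FPM in cirrhosis. Its groups did not overlap, its log2FC was -1.25 ± 0.28, and the call held in 14 of 14 fits. Il1rl1, the receptor of Il33, had 7, 1, 0 and 0 counts in control and 3, 20, 8, 10 and 0 in cirrhosis and was not called (log2FC 1.65 ± 1.16).

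Hepatocyte markers were called for 0 of 6, with sums of 146185 to 161672 FPM in control and 82145 to 150154 FPM in cirrhosis. Of the Kupffer cell or macrophage markers 2 of 8, Cd14 (log2FC -1.26) and Cd163 (-1.22), were lower (sum 287 to 421 FPM in control and 114 to 344 FPM in cirrhosis). The log2FC was above 0 for 3 of the 8, none of them called: Cd68 (0.74), Csf1r (0.59) and Adgre1 (0.34). Of 4 markers of sinusoidal endothelium tested 1 was lower (149 to 193 FPM and 34.8 to 179 FPM). Whether these levels bear on Il1r1 and Il1rap was not tested.

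Of the antagonists and decoys only Tnfrsf11b was called. Tnfrsf11b (osteoprotegerin), the soluble decoy of Tnfsf11 and Tnfsf10, was at 5.85, 4.57, 5.13 and 3.63 FPM in control and 0.499, 0.490, 0.647, 0.205 and 1.84 FPM in cirrhosis. The groups did not overlap, although cirrhosis replicate 5 was far above the rest of its group. The log2FC was -2.71 ± 0.71 (edgeR adjusted p = 0.0180), so that decoy and signalling receptor (Tnfrsf11a, above) moved in opposite directions. Il1rn, the IL-1 receptor antagonist, had a log2FC of 0.11 ± 0.29, Il18bp, which binds IL-18, one of 0.27 ± 0.31, and Il1r2, the IL-1 decoy receptor, one of 1.35 ± 0.95. None of these was called.

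The ratio of Il1rn to Il1b counts within a rat, which no scaling affects, ran from 5.39 to 22.0 in control (median 9.09), 3.82 to 7.00 in cirrhosis (median 5.51) and 3.82 to 8.17 in cirrhosis & eplerenone (median 5.18). The ratio of Il18bp to Il18 ran from 1.37 to 2.86 in control (median 2.41), 1.21 to 2.16 in cirrhosis (median 1.52) and 0.944 to 1.77 in cirrhosis & eplerenone (median 1.12). Both medians were lower in the CCl4 groups, and all ranges overlapped. These ratios were not tested, and genes of different length are compared here only as ratios between rats. The annotation places Il1rn over Il36b and Il18 over Bco2 and Tex12, so that reads may be shared.

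**Figure D3:**
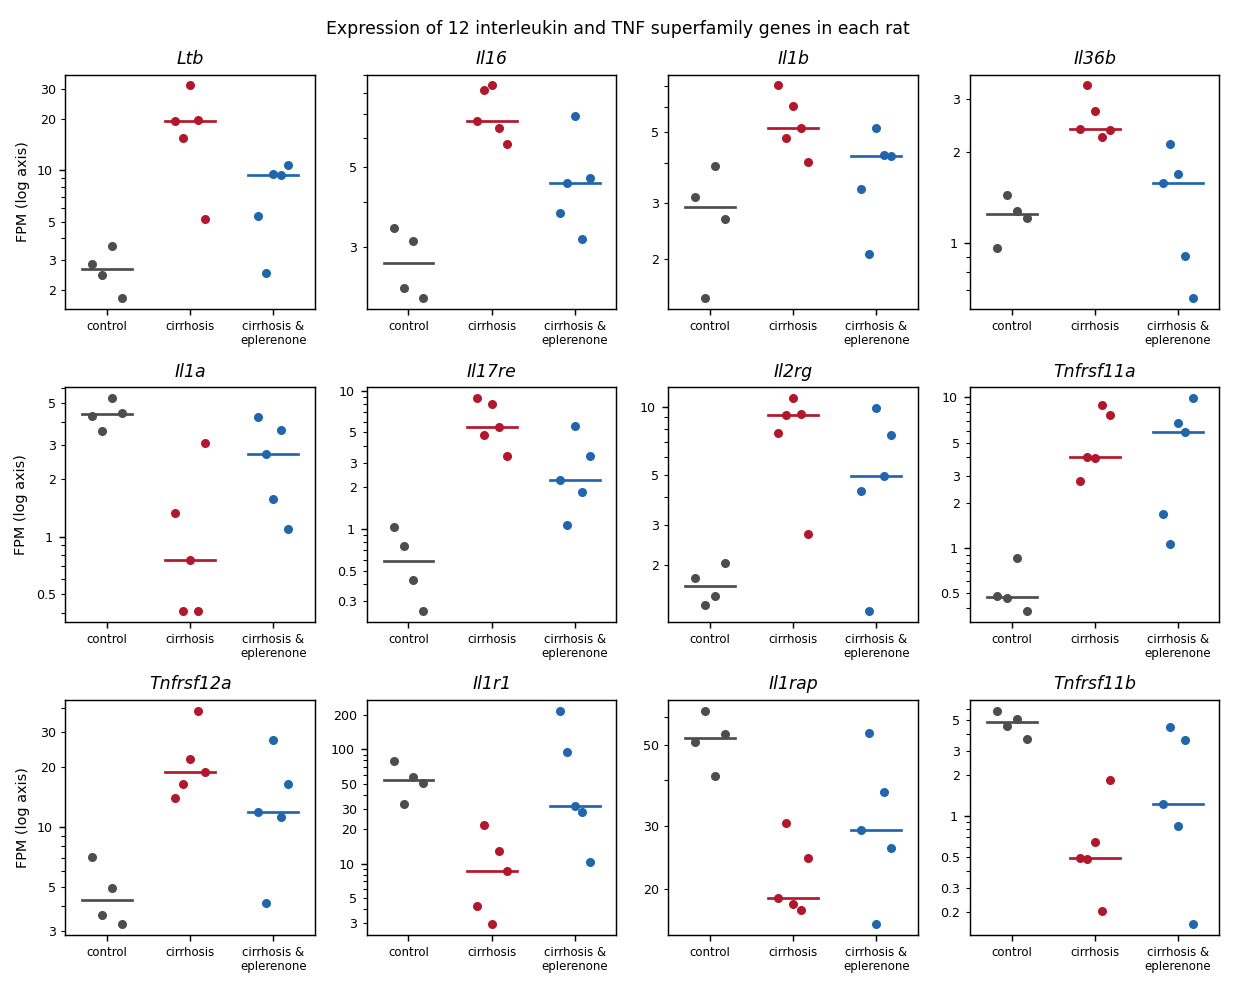
FPM (vertical axes, log scale) of 12 members in control, cirrhosis and cirrhosis & eplerenone rats, each point 1 rat and each line the median of its group. Cirrhosis rats lie above the controls for the ligands Ltb, Il16, Il1b and Il36b and the receptors Il17re, Il2rg, Tnfrsf11a and Tnfrsf12a, and below them for Il1a, Il1r1, Il1rap and Tnfrsf11b, and the eplerenone rats spread between or beyond both groups.

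Set side by side, several receptors rose whose ligand had few or no counts. Few counts were the usual state of a ligand here, as 31 of 49 did not pass the filter. Receptors that were not called could have such ligands too: Il4 reached at most 3 counts beside Il4r, and Il6 at most 8 beside Il6r. Il17re rose while its ligand Il17c had no count in any library. For Il3ra and Il21r, the ligands Il3 and Il21 also had none, and Tnfsf11, the ligand of Tnfrsf11a, reached at most 2. Tnfsf18, the ligand of Tnfrsf18, had no count in control and 10, 5, 4, 11 and 0 counts in cirrhosis. For Il17rb, which fell, the ligand Il25 reached at most 2 counts, while its other ligand Il17b had 1, 4, 0 and 5 counts in control and 14, 0, 22, 7 and 11 in cirrhosis and was not called (log2FC 1.91 ± 1.01). By contrast the pair Tnfsf12 and Tnfrsf12a was called higher on both sides, with log2FC of 0.74 and 2.22. The call of Tnfrsf12a held whichever rat was left out. That of Tnfsf12 was lost without any 1 of the controls and without cirrhosis replicate 1, 3 or 4. In the IL-1 system ligand Il1b rose while ligand Il1a, receptor Il1r1 and accessory chain Il1rap fell.

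The families of gp130 and IL-12 (7 tested) and of IL-10 (3 tested) held no call in cirrhosis in both tools, although DESeq2 alone called Il20rb, a subunit with 1 count over all controls and 33 over the cirrhosis rats. At an unadjusted p under 0.05 edgeR gave 2 of the IL-10 family and 1 of the gp130 and IL-12 family, in a background of 37.6%. Il6r, the receptor of Il6 on hepatocytes, had a log2FC of -0.37 ± 0.26. Il6st (gp130), its signalling partner, was at 39.4, 30.1, 14.2 and 53.0 FPM in control and 2.11, 26.4, 2.32, 10.51 and 21.96 FPM in cirrhosis. The groups overlapped widely, and the log2FC of -1.43 ± 0.69 did not pass (edgeR adjusted p = 0.147). Il10ra had a log2FC of 0.98 ± 0.49 and was not called. Il22ra1, the receptor of Il22, had 0 to 12 counts and was not tested.

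Other genes of the same pathways were taken from a list of 90, of which 89 were in the table and 80 were tested. In cirrhosis 24 were DEG, 18 higher and 6 lower, where 20.6% of all genes tested were DEG (13.8% higher, 6.72% lower). Of 23 genes of TLR, IL-1 and TNF signalling 5 were DEG, 4 higher and 1 lower, a share of 21.7% and near that of all genes. NF-kB genes were higher for 5 of 15 and lower for none: Relb (log2FC 2.89 ± 0.45) and Nfkb2 (log2FC 1.74 ± 0.26), partners in the alternative NF-kB pathway that the lymphotoxin, BAFF and RANK receptors use, and the inhibitors Nfkbie, Nfkbia and Tnip1. Nfkbia had a log2FC of 1.06 ± 0.28. Map3k14, the kinase at the head of the alternative pathway, was also higher, with a log2FC of 0.71 ± 0.20. Nfkb1 and Tnfaip3 were not called (log2FC 0.37 ± 0.25 and 0.91 ± 0.70).

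JAK and STAT genes were lower for 3 of 17 (Stat5b, Jak1 and Stat5a) and higher for 1, Jak3, the kinase bound to the Il2rg chain, with a log2FC of 1.35 ± 0.29. At 23.5% their share of DEG was also near that of all genes. The 3 largest called rises of the list were those of Relb, Ebi3 and Osm. Ebi3, a subunit of IL-27, and Osm (oncostatin M) had log2FC of 3.31 ± 0.85 and 3.09 ± 0.62. The largest called falls were Edar (-2.15 ± 0.64), Cntfr (-1.75 ± 0.54) and Stat5b (-1.25 ± 0.29). Fas, a death receptor, rose (log2FC 1.06 ± 0.30). Cd40 (1.35 ± 0.47), Ltbr (0.11 ± 0.20), the receptor of Ltb, Osmr (1.25 ± 0.76), Lifr (-0.82 ± 0.41), Socs3 (-1.67 ± 0.64) and Stat3 (0.46 ± 0.29) were not called.

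Many members stand next to each other on the chromosomes. By the gene order of GRCr8 there were 31 neighbouring pairs, with no more than 1 other protein coding gene between them. Both genes were tested in 10 of these pairs. The sign of the log2FC in cirrhosis was shared in 5 of the 10. Both genes were DEG in 2 pairs: Il18r1 and Il18rap on chromosome 9, which rose together, and Il1a and Il1b on chromosome 3, which went apart. The cluster on chromosome 9 runs from Il1r2 over Il1r1, Il1rl2 and Il1rl1 to Il18r1 and Il18rap, so that the receptor that fell lies among receptors whose log2FC was above 0 (1.35 for Il1r2 and 1.65 for Il1rl1, neither called). On chromosome 1 Il21r (2.24) lies beside Il4r (-0.61), and on chromosome 20 Ltb (2.78) beside Tnf (2.20, not called).

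The direct comparison of cirrhosis & eplerenone with cirrhosis gave no DEG among the 62 members. This was also rare elsewhere, with 0.0147% of all genes tested called. By edgeR 12 members had an unadjusted p under 0.05 (7 higher, 5 lower) in a background of 14.5% (6.84% higher, 7.62% lower), and the lowest edgeR adjusted p was 0.312. The higher values were those of Il1r1, Il1a, Il1rap, Il17rb, Tnfrsf11b, Il6st and Il6r, and the lower ones those of Ltb, Il17re, Il36b, Il16 and Il18bp. None of these passed the correction. The median log2FC was -0.34 over the tested ligands and 0.03 over the tested receptors. Of the higher ones the first 5 named had all fallen in cirrhosis, and 4 of the lower ones, all but Il18bp, had risen there. The same cirrhosis rats enter both comparisons with opposite sign, which favours such opposite changes. The share of all genes with opposite changes was not computed. DESeq2 alone called 1 member, Il1r1.

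Il1r1 had the largest difference. It was at 217, 95.1, 32.3, 28.2 and 10.4 FPM in the 5 cirrhosis & eplerenone rats, against 2.97 to 21.9 FPM in cirrhosis and 33.5 to 79.3 FPM in control. Replicates 1 and 2 were above all controls, and replicate 5 lay within the cirrhosis range. The log2FC against cirrhosis was 2.92 ± 0.71 (unadjusted p = 0.000914, edgeR adjusted p = 0.312, DESeq2 adjusted p = 0.0274). Among rats with code prefix 15 (3 cirrhosis, 2 eplerenone) the log2 ratio of group means was 4.01, and among those with prefix 20 (2 and 3) it was 1.14, a choice of split made after the data were seen.

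Il36b was at 1.58, 2.13, 1.70, 0.903 and 0.656 FPM with eplerenone and was the only tested member whose cirrhosis and eplerenone groups did not overlap (0.947% of all genes tested). Its log2FC against cirrhosis was -0.91 ± 0.33. Ltb was at 5.42, 2.503, 9.47, 9.37 and 10.7 FPM with eplerenone, below cirrhosis replicates 1 to 4 in every rat but above replicate 5 in 4 of 5, with a log2FC of -1.28 ± 0.42. Il1a was at 4.24, 2.69, 1.58, 3.61 and 1.09 FPM, overlapping both other groups, with a log2FC of 1.15 ± 0.53. Tnfrsf11b was at 1.23, 4.44, 0.850, 3.61 and 0.164 FPM, where replicates 2 and 4 were near control and replicate 5 was at the cirrhosis level. Its log2FC was 1.48 ± 0.68. Il17re was at 2.25, 1.06, 5.55, 1.86 and 3.39 FPM (log2FC -1.11 ± 0.43), and Il16 at 3.73, 4.51, 6.92, 3.16 and 4.64 FPM (log2FC -0.62 ± 0.24), both overlapping cirrhosis. Il6st was at 51.1, 71.3, 15.1, 32.2 and 10.98 FPM and Il6r at 218, 107, 106, 166 and 154 FPM with eplerenone, with log2FC of 1.51 ± 0.67 and 0.65 ± 0.25.

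Cirrhosis replicate 5, the cirrhosis rat nearest to control on the first component, and cirrhosis & eplerenone replicate 3, the eplerenone rat farthest from control, were also left out together. Since both were chosen by their place between the groups, this moves the groups apart, and over all genes the share called went from 0.0147% to 9.22%. The calls made this way, 5 of 56 members, are a description and no support for a difference. Of these, Il1r1 (log2FC 3.04) and Il1a (1.99) were higher with eplerenone, and Ltb (-1.64), Il17re (-1.68) and Il16 (-0.91) were lower. Leaving out any 1 rat gave 0 calls. With all rats, the T cell markers were called for 0 of 6 against cirrhosis, and all 6 had a log2FC below 0.

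Relative to control, 23 of the 25 DEG of cirrhosis had a smaller change in cirrhosis & eplerenone, all but Tnfrsf21 and Tnfsf12. Over all protein coding DEG of cirrhosis this was so for 2577 of 2802, or 92.0%, near the share of the members. The median share of the cirrhosis change that was absent with eplerenone was 33.6% for members and 32.8% for all DEG. It was 26.4% for the 20 members that had risen and 60.9% for the 5 that had fallen. This split by direction was not made for all DEG. The paper reports a larger eplerenone sensitive share among genes lowered in cirrhosis, so the difference may not be particular to the members. The changes in cirrhosis and in cirrhosis & eplerenone are measured against the same controls. The genes were also selected by their change in cirrhosis, which favours a smaller change in another group. These shares carry no test. Within prefix 20 alone the log2 ratio of eplerenone to cirrhosis was above 0 for Il2rg (0.31), Il21r (0.52), Tnfrsf18 (1.02), Il3ra (0.26) and Tnfrsf14 (0.30), and for these genes it was below 0 only within prefix 15.

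**Figure D4:**
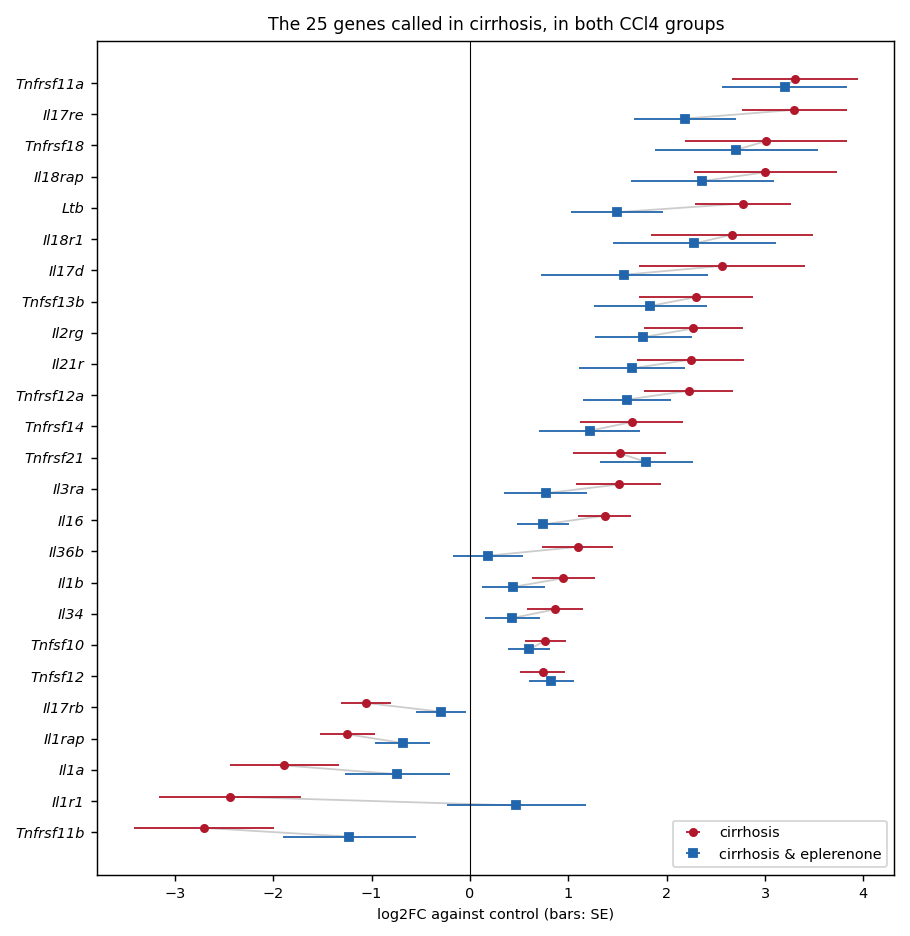
Log2FC against control (horizontal axis) of the 25 members called in cirrhosis, in cirrhosis (red circles) and in cirrhosis & eplerenone (blue squares), with bars of 1 SE. For 23 of 25 genes the square lies nearer to 0 than the circle or, for Il1r1, beyond it at 0.47, while Tnfrsf11a stays at 3.20.

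Compared with control, 4 members were DEG in cirrhosis & eplerenone, all higher, in a background of 5.33%, of which 4.50% were higher. Tnfrsf11a was at 1.69, 1.06, 6.76, 5.87 and 9.89 FPM, with all rats above the controls and replicates 1 and 2 nearest to them. Its log2FC was 3.20 ± 0.64, nearly that of cirrhosis, and the call held in 13 of 14 fits. Il17re (log2FC 2.19 ± 0.52, 10 of 14 fits), Tnfrsf21 (1.79 ± 0.47, 8 of 14) and Tnfsf12 (0.83 ± 0.23, 3 of 14) followed. Tnfrsf21 was at 8.18, 2.82, 6.48, 3.95 and 2.46 FPM and Tnfsf12 at 11.7, 11.6, 18.46, 13.04 and 16.501 FPM, both without overlap with control. Groups did not overlap for 5 of the 62 members tested, the fifth being Tnfrsf18, and all were higher, against 6.70% of all genes tested. The count ranged from 0 without control replicate 5 to 13 without cirrhosis & eplerenone replicate 2, whose first component lay closest to control. DESeq2 alone called 12 members. The median log2FC against control was 0.56 over the tested ligands and 0.84 over the tested receptors, the latter near 0 (0.09) once every sample had to hold 10 counts or more. In that case 1 member was called, in a background of 3.42%.

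By the definition used for eplerenone sensitive genes, a DEG of cirrhosis whose log2FC is 1 or more in size and that is no DEG and has at most 1 in cirrhosis & eplerenone against control, 7 of 21 members qualified. Il16, Il36b and Il3ra had risen, and Il1a, Il1r1, Il1rap and Il17rb had fallen. Among all protein coding genes 666 of 2024, or 32.9%, qualified in the fits made here. This share is smaller than the one the paper reports for its own cirrhosis sensitive genes. This definition involves no test of eplerenone against cirrhosis. None of the 7 was called in that test. Between 2 and 9 members qualified when 1 rat was left out, with 2 without cirrhosis replicate 1, 3 without cirrhosis replicate 3 or control replicate 2 or 5, and 4 without cirrhosis replicate 4 or control replicate 3 or 4.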

How the data were processed

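Liver RNA of 15 rats was sequenced as paired reads of 150 bp, and 14 libraries were analysed here. The authors mapped them to rn6 with HISAT2 2.1.0 and deposited raw counts per gene, made with featureCounts 2.0.0 and annotated with BiomaRt 2.44.4 (Ensembl 101). Multi-mapping reads were counted at every location, and whether strand was used is not given in the sources used here, so how reads over 2 overlapping genes were assigned was not tested. The study dropped a control that stood apart on principal components. Control replicate 1 and Il7r were not analysed here.

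Genes were kept by filterByExpr (smallest count 10). With R 4.3.3 one model of 3 groups was fitted by edgeR 4.0.16 (TMM, quasi-likelihood test) and one by DESeq2 1.42.0, each with Benjamini-Hochberg adjustment. For edgeR this ran over all 14417 genes tested, 13628 of them protein coding. DESeq2 applied its default filter on low mean counts first, so that its adjustment could cover fewer genes. A DEG had an FDR below 0.05 in both. Log2FC are given as log2FC ± SE of edgeR, with SE taken from log2FC and F. The labels do not say more of the replicates than 1 rat each, and floors cover counting error only. The fit was checked on simulated counts.

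Members and lists were chosen with earlier results of these data known. Every DEG, a fixed set of members and the largest rises and falls of the pathway list were named, up to 15 ligands or antagonists and 15 receptors or decoys per comparison. One gene of the pathway list is not reported here. Gene order, overlaps and promoters are those of RefSeq GRCr8, matched by symbol for 110 of 110 members, and no coordinate was moved between builds. Alternatives covered scaling, filters, tests, samples, the replicate number and the animal code prefix.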

Additional observations from a re-analysis of the deposited data

Results flagged for a closer look

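Single rats stood far from the rest of their group in 11 of 168 groups of 4 or 5 rats examined by Dixon's test, where chance gives about 5%. Among members, cirrhosis replicate 4 was the highest of its group for Il15 (8.72 FPM), Il18r1 (1.59 FPM) and Tnfrsf21 (8.62 FPM). Cirrhosis replicate 5, the rat nearest to control on the first component, was the highest for Tnfrsf11b (1.84 FPM), and cirrhosis replicate 2 for Tnfrsf1b (23.1 FPM). Control replicate 2 was the highest for Il18rap (0.483 FPM) and Il1rl1 (0.422 FPM). Among pathway genes, Lifr was lowest in control replicate 4 (2.14 FPM), Edar highest in cirrhosis & eplerenone replicate 4 (19.1 FPM) and Ebi3 highest in cirrhosis & eplerenone replicate 3 (1.54 FPM). Relb was lowest of its group in cirrhosis replicate 5 (6.96 FPM).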

How the results depend on the processing

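The 25 members called in cirrhosis kept their direction under every scaling, filter, test and set of samples tried in which they were tested. The number of members called was 15 (14 shared with the 25) with at least 10 counts in every sample, where 35 members were tested, and 12 to 27 with 1 rat left out. With eplerenone against cirrhosis it was 5 with 4 rats per group (without rats chosen by their place on the first component), 1 by DESeq2 alone and 0 in each fit with 1 rat left out. Against control it was 12 without TMM, 12 by DESeq2 alone, 1 with at least 10 counts in every sample and 0 to 13 with 1 rat left out. Eplerenone sensitive members numbered 18 with no limit on the change that remained and 2 to 9 with 1 rat left out. The median log2FC of ligands in cirrhosis was 1.19 without TMM, 1.28 with no filter, 0.78 with only both groups compared in the fit and 0.79 to 1.11 with 1 rat left out. That of receptors was 1.26, -0.13 with at least 10 counts in every sample, 0.28 with only both groups in the fit and 0.36 to 1.18 with 1 rat left out. The cause of these shifts was not tested. The depth left 31 of 49 ligands below the filter and thus untested.

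The replicate numbers did not pair the rats. Over 13 pairs with the same number the deviations from the group means correlated at -0.35 to 0.21, 4 of them over 0.1, and 0 of 14 rats correlated best with its own number. With the number as a replicate block 14 members were called in cirrhosis, 13 of them shared with the 25, and 2 in cirrhosis & eplerenone against control.

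Signs were compared for the members and some pathway genes called in cirrhosis, and for the members called in cirrhosis & eplerenone against control. For eplerenone against cirrhosis they were compared in the members called in cirrhosis. Only these last differences, none of them called, changed sign. Other named genes were not compared in this way, and among them signs could change too. Tnfsf12 went to -0.18 with 4 rats per group and to -0.24 within prefix 15. With 1 rat left out it ran from -0.051 to 0.21, Il18r1 from -0.62 to 0.15, Tnfrsf11a from -0.50 to 0.15, Tnfrsf18 from -0.51 to 0.090 and Tnfrsf21 from -0.0062 to 0.78. Within prefix 15 Il18r1 was at 0.17, and within prefix 20 Il21r was at 0.52, Il2rg at 0.31, Il3ra at 0.26, Tnfrsf14 at 0.30, Tnfrsf18 at 1.02, Tnfrsf21 at -0.45, Tnfsf10 at 0.049 and Tnfsf13b at 0.071, a split added after the data were seen.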
